A study of Homo sapiens with 18 samples.

Results

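The MAGE (melanoma antigen) family genes were followed across 2 human cell lines and a mixture of them, with and without irradiation. Members were taken by symbol: MAGE, then a letter from A to F, H or L, then a number and an optional B. This gave 35 of the 40916 symbols in the count tables. The family was chosen by the measured counts of MAGEB2, whose wide difference between the lines in these same libraries was already known, so the line difference is described here and not tested.

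Polyadenylated RNA was sequenced in 18 libraries, 3 biological replicates in each of 6 groups. The MCF10A cells, epithelial cells of the breast that are not tumour cells, expressed a histone H2B fused to GFP. The HCT116 cells come from a colon tumour and carried no label. Each line was grown alone, in its own medium, and as a mixture described as 50% of each, in a medium not given in the sources used here. Each culture was either left without irradiation (NIR) or exposed to 10 Gy (IR), and RNA was taken on day 2 by the sample titles or at 72 h by the series text. Every MCF10A group carried the reporter.

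MAGE proteins share a conserved MAGE homology domain and often act by binding RING-type ubiquitin ligases and altering what those ligases mark. Type I genes (MAGEA, MAGEB and MAGEC) lie in clusters on the X chromosome, are normally active mainly in the germ line, and are kept silent in most somatic tissue in part by promoter DNA methylation. Many tumours express some of them, hence their name of cancer-testis antigens. Type II genes (here MAGED, MAGEE, MAGEF, MAGEH and MAGEL) are expressed in many tissues.

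The libraries held 25.7 to 40.8 M counts (M is 1000000), so that 3 counts, taken as the floor of detection, stood for 0.0735 to 0.117 CPM (counts of a gene per 1000000 counts in its library). Of the values from 1 to 10 in the tables, 68.3% were even. Halved counts were therefore tried in the tests and in the ratios set against the floor, but not in the counting intervals. Summed markers of basal mammary cells (10 genes) were at 10660 to 11388 CPM in MCF10A NIR and 881 to 1056 CPM in HCT116 NIR. Summed intestinal markers (10 genes) were at 1209 to 1485 CPM in HCT116 NIR and 48.1 to 52.0 CPM in MCF10A NIR. In HCT116 NIR, 5 of these 10 intestinal genes reached 1 CPM (KRT19, EPCAM, CDH1, CDX2 and KRT20). VIL1, CDH17, LGALS4 and GPA33 stayed below that, and CDX1 was at 0. The mixed libraries held little MCF10A RNA: 0.503%, 0.438% and 0.399% in the 3 NIR libraries and 1.29%, 1.17% and 1.27% in the 3 IR libraries, from genes specific to each line. The mixed libraries were thus almost wholly HCT116 RNA. Fewer cells of a type and less RNA per cell cannot be told apart.

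The 35 members split into a minority that reached 1 CPM and a majority with few or no counts. A group mean of at least 1 CPM in at least 1 of 6 groups was reached by 7 members, here called expressed. These were the type I genes MAGEB2, MAGEA3 and MAGEB17 and the type II genes MAGED1, MAGED2, MAGEE1 and MAGEF1. Another 10 members had a highest group mean between 0.1 and 1 CPM, here called trace: MAGEA2, MAGEA2B, MAGEA6, MAGEA8, MAGEA9, MAGEA11, MAGEB3, MAGEB6, MAGEC3 and MAGEH1. A further 10 had some count but stayed below 0.1 CPM: MAGEA4, MAGEA9B, MAGEA10, MAGEA12, MAGEB1, MAGEB4, MAGEB10, MAGEC1, MAGEC2 and MAGED4B. No count was found in any library for 8 members: MAGEA1, MAGEB5, MAGEB6B, MAGEB16, MAGEB18, MAGED4, MAGEE2 and MAGEL2. Over all 40916 symbols, 10180 had no count either, so the number of members with no count is not read as a trait of the family. By type, 3 of 26 type I genes and 4 of 9 type II genes were expressed. In the RefSeq annotation of GRCh38.p14, 33 members lie on the X chromosome, MAGEF1 on chromosome 3 and MAGEL2 on chromosome 15.

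The sequences just upstream of the genes are shown because counts differed by orders of magnitude between close neighbours and near-identical copies. Each is the 250 bases before a RefSeq start site on GRCh38.p14, written 5′ to 3′ on the gene's strand, with capitals marking GGATGTG, a 7-base motif noticed after the sequences were seen and searched on both strands. MAGEB2 (chrX:30215313-30215562, plus strand) was the most abundant member in HCT116. MAGEB3 (chrX:30230407-30230656, plus strand), whose gene begins 10.6 kb beyond the end of MAGEB2, was a trace gene. MAGEA3 (chrX:152698544-152698793, plus strand) was expressed, and its sequence was identical at 250 of 250 bases to that of MAGEA6 (chrX:152769690-152769939, minus strand), a trace gene. MAGEA12 (chrX:152733612-152733861, plus strand), 31.4 kb from MAGEA3, had 4 counts in 1 library and none in the others.
MAGEB2: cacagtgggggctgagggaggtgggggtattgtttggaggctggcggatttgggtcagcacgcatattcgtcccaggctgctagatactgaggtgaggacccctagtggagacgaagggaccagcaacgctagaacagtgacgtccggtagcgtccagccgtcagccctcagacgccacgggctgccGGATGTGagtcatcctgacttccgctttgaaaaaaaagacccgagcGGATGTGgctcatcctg
MAGEB3: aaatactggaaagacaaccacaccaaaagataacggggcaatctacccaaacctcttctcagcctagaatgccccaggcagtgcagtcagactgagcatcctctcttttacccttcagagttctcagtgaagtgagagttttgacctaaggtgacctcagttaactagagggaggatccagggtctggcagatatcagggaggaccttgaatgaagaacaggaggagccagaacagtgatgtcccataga
MAGEA3: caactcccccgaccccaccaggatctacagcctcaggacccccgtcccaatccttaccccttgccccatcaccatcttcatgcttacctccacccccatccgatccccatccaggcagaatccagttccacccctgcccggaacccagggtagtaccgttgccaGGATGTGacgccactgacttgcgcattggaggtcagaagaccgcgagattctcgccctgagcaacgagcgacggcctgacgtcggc
MAGEA12: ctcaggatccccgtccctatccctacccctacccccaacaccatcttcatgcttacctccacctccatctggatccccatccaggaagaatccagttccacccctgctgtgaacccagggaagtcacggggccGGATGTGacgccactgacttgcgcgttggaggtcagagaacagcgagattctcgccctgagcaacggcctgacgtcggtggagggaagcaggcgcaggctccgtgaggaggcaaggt

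The MAGEB2 sequence held the motif 2 times and the MAGEA3 and MAGEA12 sequences 1 time each, while MAGEB3 held none. The CG dinucleotide, the site at which mammalian DNA is methylated, occurred 15 times in the MAGEB2 and in the MAGEA3 sequence, 13 times in that of MAGEA12 (5 times in the other entry of this gene) and 1 time in that of MAGEB3, against a median of 11 over all 35116 RefSeq entries. MAGEA6 had the same 15 sites as MAGEA3. Entries were found for 31 members (there were none for MAGEA1, MAGEA10, MAGEB17 and MAGEH1). The motif was in at least 1 entry of 14 of 23 type I members and of 0 of 8 type II members. Counted by single entry and not by gene, it was in 3.52% of all entries, so these shares are not compared. The 14 members include copies with identical upstream sequences: MAGEA3 and MAGEA6, MAGEA2 and MAGEA2B, and MAGEA9 and MAGEA9B. A match describes the letters only. Neither the motif nor the number of CG sites separated expressed members from the rest: MAGEA4, MAGEA9 and MAGEC1, all under 1 CPM in every group, held the motif too. No methylation was measured in these libraries.

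**Figure D1:**
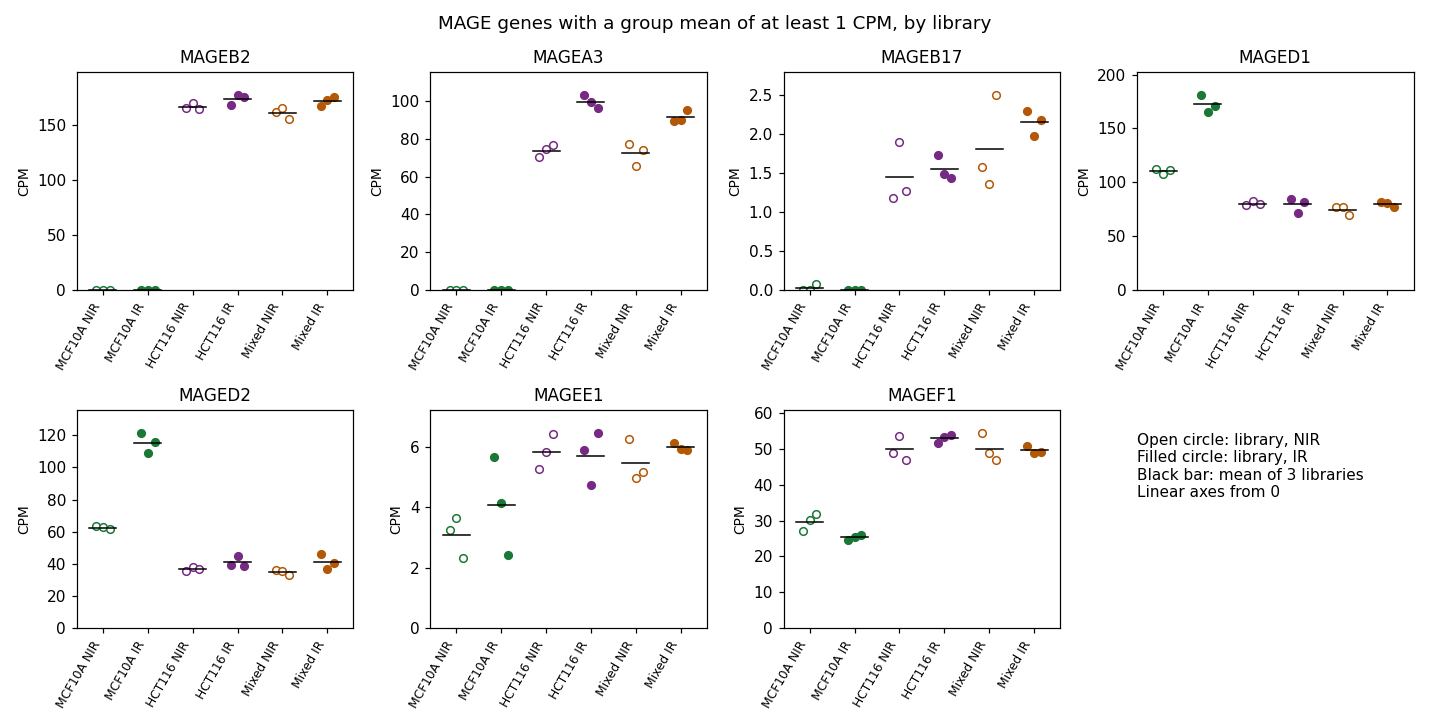
CPM (y axis, linear from 0, own scale per panel) of the 7 expressed MAGE genes in each of the 18 libraries, by group (x axis); open circles are NIR and filled circles IR libraries, and bars are means of 3. MAGEB2, MAGEA3 and MAGEB17 sit at or near 0 in MCF10A, and MAGED1 and MAGED2 are highest in MCF10A IR.

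MAGEB2 was at 166, 171 and 165 CPM in the 3 HCT116 NIR libraries and at 169, 178 and 176 CPM after irradiation. The mixed libraries held 162, 166 and 156 CPM (NIR) and 168, 173 and 176 CPM (IR). All 3 MCF10A NIR libraries were at 0, as were 2 of the MCF10A IR libraries, and MCF10A IR replicate 1 held 2 counts, or 0.0735 CPM. Every library with HCT116 cells was thus far above every MCF10A library. MAGEB2 binds RNA and is known for lowering the translation of G3BP1, a stress granule protein. Against the floor of 3 counts over the group, it was at least 5507-fold higher in HCT116 NIR than in MCF10A NIR, or at least 2753-fold with counts halved. After irradiation the ratio was 7723, with a 95% counting interval of 2138 to 63776 that rests on the 2 counts in MCF10A. Here and below, values against the floor and ratios with an interval follow different rules, so no change with irradiation is read from them.

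MAGEA3, which binds the ligase TRIM28 and directs it to the AMPK subunit encoded by PRKAA1, was at 70.4, 74.6 and 76.6 CPM in HCT116 NIR. It was at 103, 99.5 and 96.6 CPM in HCT116 IR. The 3 NIR libraries lay below the 3 IR libraries without overlap. The mixed libraries showed the same order, with 77.2, 65.6 and 74.2 CPM (NIR) against 89.8, 89.9 and 95.2 CPM (IR). In MCF10A, only IR replicate 2 held any count (2 counts, 0.0730 CPM). MAGEA3 was at least 2424-fold higher in HCT116 NIR than in MCF10A NIR (at least 1212-fold with counts halved), and the IR ratio was 4429, with a counting interval of 1226 to 36579.

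MAGEB17 was expressed at a low level. It was at 1.19, 1.90 and 1.27 CPM in HCT116 NIR and 1.74, 1.49 and 1.44 CPM in HCT116 IR, and these ranges overlapped. It was at 1.57, 1.36 and 2.50 CPM in mixed NIR and 2.30, 1.98 and 2.18 CPM in mixed IR, which also overlapped. In MCF10A it had 2 counts in NIR replicate 3 and none elsewhere. Its ratio between the lines was 71.7 (counting interval 19.5 to 598) without irradiation and at least 46.1 after it (at least 23.2 with counts halved). MAGEB17 and the antisense gene MAGEB17-AS1, at 1.22 ± 0.206 CPM in HCT116 NIR (SD, n = 3), overlap by 1199 bases. Since the strand setting of the counting is not given in the sources used here, their reads cannot be told apart.

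The summed level of the 26 type I genes was 244 ± 4.47 CPM in HCT116 NIR and 0.107 ± 0.0851 CPM in MCF10A NIR (SD, n = 3). The 9 type II genes summed to 173 ± 6.24 CPM in HCT116 NIR and 206 ± 1.65 CPM in MCF10A NIR. MAGEB2 (167 CPM) and MAGEA3 (73.8 CPM) made up most of the type I sum of HCT116, and the other type I genes except MAGEB17 were under 1 CPM in both lines. MAGEC3, with 4 counts in MCF10A NIR and none in HCT116 NIR, went the other way. The sum therefore describes these 2 genes and not type I genes as a class.

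MAGED1, an adaptor that binds the p75 neurotrophin receptor, was at 112, 107 and 112 CPM in MCF10A NIR and 78.4, 82.4 and 79.8 CPM in HCT116 NIR. MAGED2, in which loss of function causes a transient antenatal form of Bartter syndrome, was at 63.3, 62.7 and 61.4 CPM in MCF10A NIR and 35.4, 37.8 and 36.9 CPM in HCT116 NIR. Both were higher in MCF10A with no overlap between libraries, MAGED1 by 1.38-fold and MAGED2 by 1.70-fold. After irradiation these gaps were 2.17-fold and 2.81-fold. In HCT116 IR, MAGED1 was at 84.8, 71.7 and 81.6 CPM and MAGED2 at 39.1, 45.0 and 38.8 CPM. MAGED1 was at 76.6, 77.1 and 69.2 CPM in mixed NIR and 81.5, 80.6 and 76.7 CPM in mixed IR.

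MAGEF1, which works with the ligase NSMCE1, went the other way. It was at 27.0, 30.2 and 31.9 CPM in MCF10A NIR against 49.1, 53.7 and 47.0 CPM in HCT116 NIR, 1.68-fold higher in HCT116, and 2.08-fold higher after irradiation. It was at 51.9, 53.3 and 53.9 CPM in HCT116 IR, at 54.4, 48.9 and 47.0 CPM in mixed NIR and at 51.0, 48.8 and 49.3 CPM in mixed IR. MAGEE1, a binding partner of dystrobrevin, was at 3.23, 3.66 and 2.32 CPM in MCF10A NIR and 5.27, 5.84 and 6.44 CPM in HCT116 NIR, a 1.90-fold difference without overlap. After irradiation its libraries overlapped, with 5.66, 4.16 and 2.41 CPM in MCF10A and 5.91, 4.75 and 6.45 CPM in HCT116. In the mixture it was at 6.26, 4.96 and 5.17 CPM (NIR) and 6.12, 5.93 and 5.91 CPM (IR).

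Scaling moves these smaller line differences: with TMM effective library sizes the log2 ratio of HCT116 to MCF10A without irradiation was -0.65 for MAGED1 in place of -0.46, -0.96 for MAGED2 in place of -0.77 and 0.56 for MAGEF1 in place of 0.75. No direction changed. Among genes passing the count filter in the line comparison, libraries did not overlap for 77.7% without irradiation and 78.9% after it. The same held for 8 of 8 and 7 of 8 members that passed, a count from which nothing is read, since the choice of the family used this contrast and MAGEA2, MAGEA3, MAGEB2 and MAGEB17 passed only through HCT116.

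Levels were set against each other per kb of exon (GENCODE release 29). The length joined the exons of all transcripts of a gene, 6.02 kb for MAGED1 and 2.94 kb for MAGED2. In HCT116 NIR the order was MAGEB2 at 104 CPM per kb, MAGEA3 at 41.3, MAGEF1 at 30.5, MAGED1 at 13.3, MAGED2 at 12.5, MAGEE1 at 1.61 and MAGEB17 at 0.900. Each neighbouring pair in this order was separate over the 3 libraries, the closest being MAGED1 (13.0 to 13.7) and MAGED2 (12.0 to 12.9). In MCF10A NIR the order was MAGED2 at 21.2 CPM per kb, MAGED1 at 18.4, MAGEF1 at 18.2 and MAGEE1 at 0.847, with MAGED1 (17.9 to 18.7) and MAGEF1 (16.5 to 19.5) overlapping. So a type I gene led in HCT116 and a type II gene in MCF10A. The order of MAGED1 and MAGED2 in MCF10A depends on the exon length used, which the library ranges do not cover. The same holds for the place of MAGED1 below MAGEA3 and MAGEF1 in HCT116. By CPM alone MAGED1 was above MAGED2 in MCF10A NIR (110 against 62.5 CPM) and in HCT116 NIR (80.2 against 36.7 CPM). In HCT116 NIR MAGED1 was by CPM also above MAGEA3 (73.8 CPM) and MAGEF1 (49.9 CPM).

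The 20 members with some count but under 1 CPM in every group fell on both sides of the line difference. MAGEA2 had 34, 12 and 38 counts in HCT116 NIR, 36, 42 and 12 in HCT116 IR, 15, 12 and 46 in mixed NIR and 30, 30 and 20 in mixed IR, and none in any MCF10A library. It was the member closest below the limit of 1 CPM, at 0.911 ± 0.505 CPM in HCT116 NIR (SD, n = 3), and MAGEB17, at up to 2.15 CPM, was the closest above it. MAGEA6, which like MAGEA3 works with TRIM28, had 9, 14 and 8 counts in HCT116 NIR, 12, 7 and 0 in HCT116 IR, 5, 4 and 0 in mixed NIR, 9, 6 and 6 in mixed IR, and 2 in 1 MCF10A NIR library. MAGEB3 held 26 counts in mixed NIR replicate 2 and at most 9 in any other library, and none of the other 17 genes had more than 12 counts in a library.

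MAGEH1 and MAGEC3 had more counts in MCF10A than in HCT116. MAGEH1 had 2, 4 and 0 counts without irradiation in MCF10A, 8, 6 and 6 with it, 6 in HCT116 IR replicate 3, 2 in mixed IR replicate 3 and none in the other 10 libraries. MAGEC3 had 0, 2 and 2 counts without irradiation in MCF10A, 4, 7 and 2 with it, and 3 in 1 HCT116 IR library. MAGEA11, an androgen receptor coregulator, had 8 and 4 counts in 2 MCF10A IR libraries, 6 in 1 HCT116 IR library, 2 in 1 mixed IR library and none in any NIR library. These genes did not pass the count filter, their values lie near the floor of 3 counts, and no change was tested for them.

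**Figure D2:**
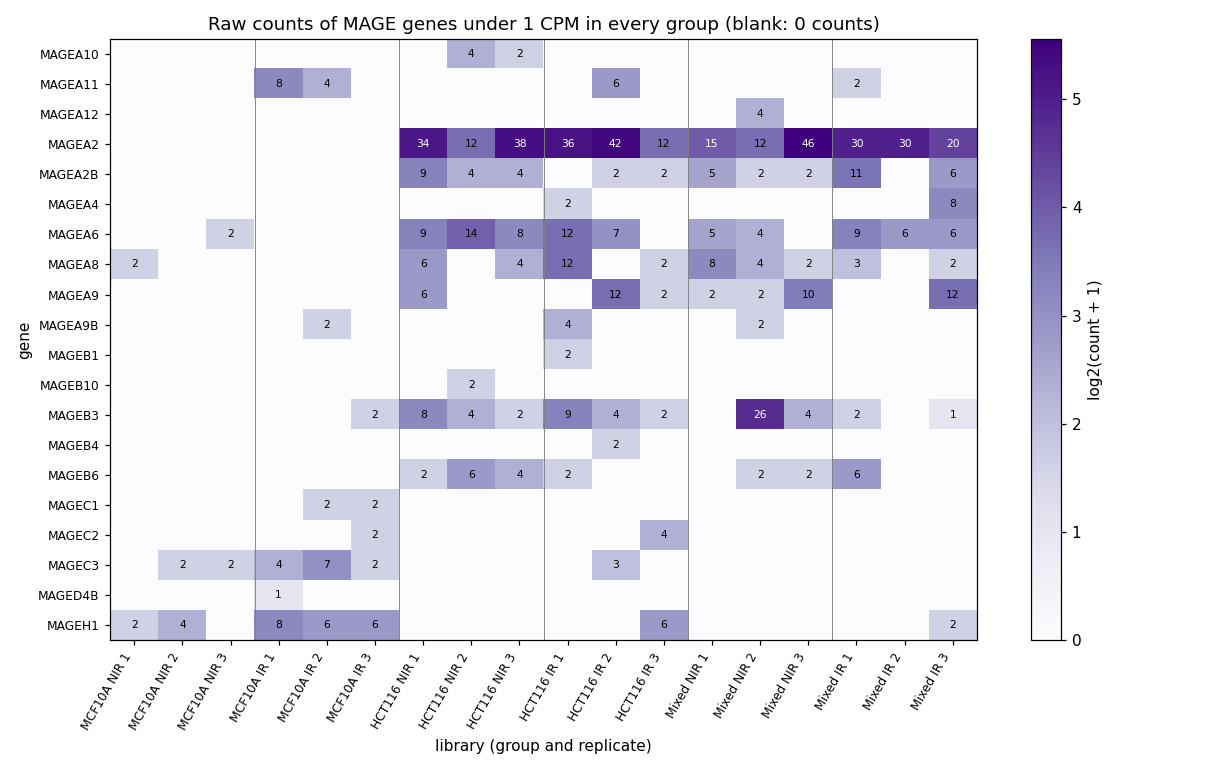
Raw counts of the 20 MAGE genes with some count but under 1 CPM in every group (rows) in the 18 libraries (columns, group and replicate); the colour is log2(count + 1), the printed number is the count, and blank cells are 0. MAGEA2 has 12 to 46 counts in every HCT116 and mixed library and none in MCF10A.

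How far a low count can be read depends on how much sequence a gene shares with its copies. Each transcript was cut into all windows of 150 bases, the read length of the study. No window was shared with another gene for 23 members, MAGEB2, MAGEB17 and MAGED1 among them. Over 50% of windows were shared for 6 members: MAGED4 (97.2%), MAGED4B (95.8%), MAGEA2 (88.1%), MAGEA9 (86.4%), MAGEA2B (77.9%) and MAGEA9B (76.7%). Reads from shared windows may have been split, assigned to 1 copy or dropped, so the counts of these 6 genes, the 0 of MAGED4 included, are uncertain.

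MAGEA3 and MAGEA6 shared 27.1% and 25.6% of their windows with each other, and 1239 and 1338 windows were their own. MAGEA3 had 33966 counts over the 18 libraries and MAGEA6 had 82. This gap of counts was present beside identical upstream sequences. Most windows were unshared in both genes, but windows were matched exactly, so an unshared window may still be close to the other copy. The treatment of multi-mapping reads is not given, and the part of read assignment between the copies in this gap was not tested.

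**Figure D3:**
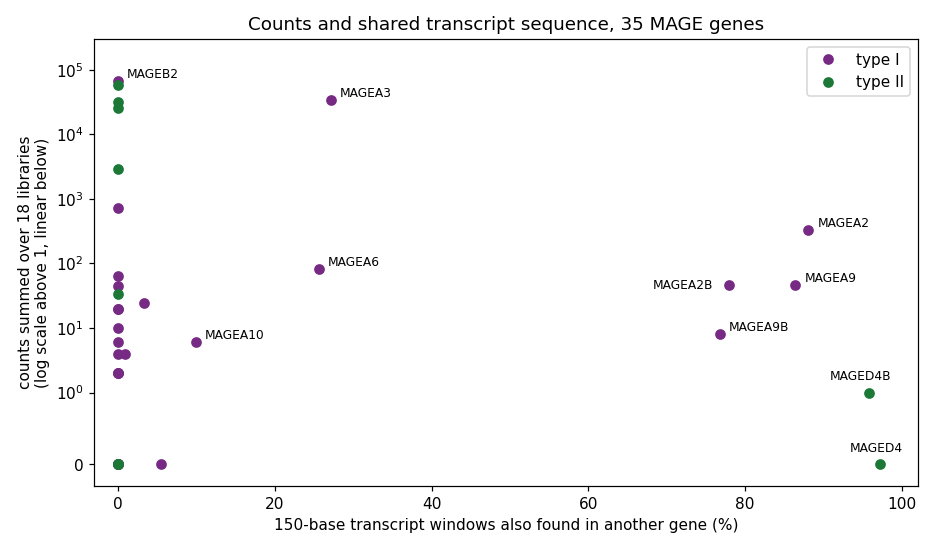
Share of 150-base transcript windows found in another gene (x axis, percent) against counts summed over 18 libraries (y axis, log scale above 1 and linear below) for the 35 MAGE genes, coloured by type. MAGEB2 shares none, MAGEA3 and MAGEA6 share about the same part at 33966 and 82 counts, and 6 genes share over 50%.

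Other transcripts from the X chromosome near MAGEA3 and MAGEA6 were also counted, at unlike levels. MAGEA3-DT, a long non-coding RNA annotated 66 bases from MAGEA3, had at most 4 counts in a library. It was at 0.0241 CPM in HCT116 NIR. The cancer-testis genes CSAG1 and CSAG2 were at 0.0207 and 0.340 CPM in HCT116 NIR. MAGEA6-DT, a long non-coding RNA annotated 51 bases from MAGEA6, was at 2.52, 3.05 and 3.26 CPM in HCT116 NIR and 5.70, 6.22 and 4.20 CPM in HCT116 IR. It was at 0 in all 6 MCF10A libraries. It rose with irradiation of HCT116 without overlap between libraries, by a log2 fold change of 0.89 (SE 0.209, edgeR adjusted p = 0.0010). In the mixed cultures it was at 2.25, 2.91 and 5.06 CPM (NIR) and 5.24, 4.17 and 4.58 CPM (IR), a log2 difference of 0.41 that did not pass (edgeR adjusted p = 0.161), but reached 0.81 without mixed NIR replicate 3 (edgeR adjusted p = 0.0053). CSAG3, another cancer-testis gene, 5.92 kb from MAGEA6, was at 15.5 ± 1.27 CPM in HCT116 NIR (SD, n = 3) and was at 0 in MCF10A; it belongs to a multigene family, whose reads may be split among copies. Transcripts assigned to both sides of MAGEA6 were thus counted in HCT116. MAGEA6-DT is annotated from inside the 250 bases upstream of MAGEA6, which are identical to those of MAGEA3. The sequence that MAGEA6-DT shares with other transcripts was not computed. Its counts, and their change with irradiation, may therefore include reads from a copy.

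Irradiation was then compared within each culture, with edgeR's quasi-likelihood test over all genes that passed the count filter and Benjamini-Hochberg adjusted p-values under 0.05 counted as passing. In HCT116, 8 members could be tested and 1, MAGEA3, rose, while 52.6% of all genes tested passed (25.6% higher and 27% lower). The log2 fold change of MAGEA3 was 0.45 (SE 0.064, adjusted p = 4.3e-06), or 1.36-fold, and it passed under every alternative tried, from 0.40 to 0.47. Summed basal mammary markers were also higher in HCT116 IR, at 1937 to 2224 CPM, with TP63 among them at 0 (NIR) and 0.0326 CPM (IR). ITGB4 (477 to 978 CPM) and SFN (165 to 629 CPM) carried most of that change, and KRT5, KRT14, KRT6A and KRT17 stayed under 2 CPM. MCF10A itself held at most 2 counts of MAGEA3 in a library. MAGEB2 stood at 0.07 (SE 0.057, adjusted p = 0.317), and its NIR and IR libraries overlapped. Its standard error was the lowest of the 8 members.

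None of the other 6 members tested in HCT116 passed. MAGED2 stood at 0.17 (adjusted p = 0.085), MAGEF1 at 0.10 (adjusted p = 0.278), MAGED1 at -0.0054 (adjusted p = 0.955) and MAGEE1 at -0.03 (adjusted p = 0.895). MAGEB17 (0.11, SE 0.333) and MAGEA2 (-0.04, SE 0.501) had errors too wide to show a change of the size seen in MAGEA3. The median over the 8 members was 0.08, against 0.01 over all genes tested.

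In MCF10A, 4 members could be tested, all type II. MAGED1 went from 112, 107 and 112 CPM to 181, 165 and 170.5 CPM, and MAGED2 from 63.3, 62.7 and 61.4 CPM to 121, 109 and 116 CPM. Neither gene had overlapping libraries. MAGED1 rose by 0.62 on the log2 scale (SE 0.047, adjusted p = 5.0e-12), or 1.54-fold, and MAGED2 by 0.86 (SE 0.053, adjusted p = 6.3e-14), or 1.82-fold. Both passed under every alternative, with ranges of 0.58 to 0.70 and 0.83 to 0.95. Of all genes tested in MCF10A, 55.4% passed (26.2% higher and 29.2% lower). Summed intestinal markers went from 48.1 to 52.0 CPM in the NIR libraries to 126 to 140.1 CPM in the IR libraries, with CDX1, CDX2 and GPA33 at 0 in both groups. CDH1, a gene of epithelial cells in general, carried this change (40.4 to 123 CPM), while EPCAM was at 9.87 and 8.99 CPM and each of the other 8 genes stayed under 1 CPM. Their part in these changes was not tested.

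MAGEF1 went from 27.0, 30.2 and 31.9 CPM to 24.7, 25.5 and 26.1 CPM in MCF10A, again without overlap. It fell by 0.24 on the log2 scale (SE 0.083, adjusted p = 0.014). This call was lost with upper-quartile normalization (-0.16, adjusted p = 0.107), without NIR replicate 3 (-0.19, adjusted p = 0.084) and without IR replicate 1 (-0.22, adjusted p = 0.055). MAGEE1 stood at 0.37 (SE 0.253, adjusted p = 0.227) and passed only when IR replicate 3, its lowest IR library at 2.41 CPM, was left out (0.64, adjusted p = 0.029). The median over the 4 members tested was 0.49, against 0.0035 over all genes.

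In the mixed cultures 2 of 8 members tested rose, with 49.4% of all genes passing (24% higher and 25.4% lower). MAGEA3 rose by 0.32 on the log2 scale (SE 0.067, adjusted p = 4.9e-04). MAGED2 went from 36.2, 35.4 and 33.1 CPM to 46.1, 37.0 and 40.4 CPM and rose by 0.21 (SE 0.084, adjusted p = 0.043). That second call was close to the threshold: it was lost without a filter on low counts (adjusted p = 0.067) and in 5 of the 6 fits that left out a library. The adjusted p was 0.054, 0.066 and 0.156 without NIR replicates 1, 2 and 3, and 0.300 and 0.080 without IR replicates 1 and 3. The log2 fold change was lowest, 0.11, without IR replicate 1, the highest library. The share of MCF10A RNA in the mixed libraries was 0.447% ± 0.0528 (NIR) and 1.24% ± 0.0662 (IR; SD, n = 3 each), and its part in this change was not tested. MAGEB2 stood at 0.07 (adjusted p = 0.324), although its 3 IR libraries lay above the 3 NIR libraries. The median was 0.09 over the 8 members and 0.01 over all genes.

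**Figure D4:**
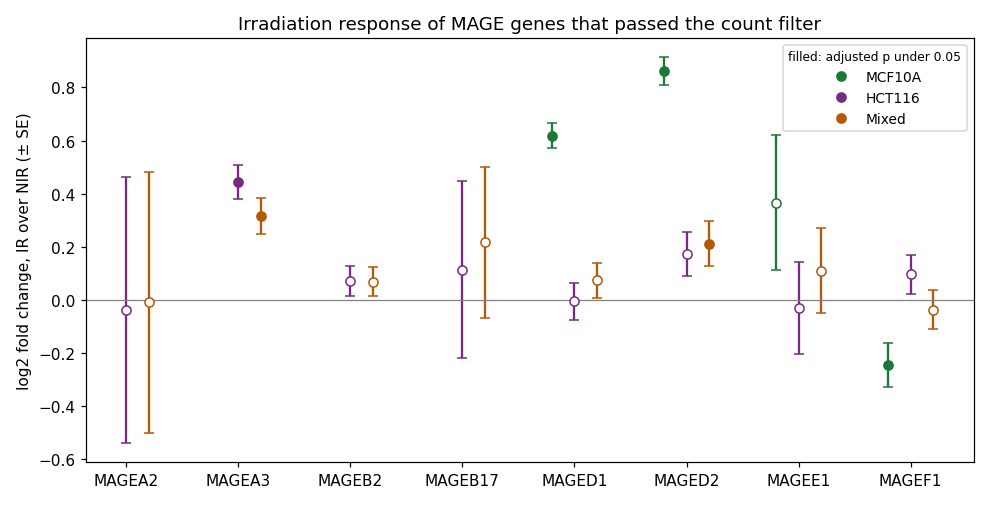
Log2 fold change of IR over NIR (y axis, ± SE, edgeR) for the MAGE genes that passed the count filter (x axis), in MCF10A, HCT116 and mixed cultures; filled points have an adjusted p under 0.05. MAGEA3 is higher in both HCT116 and mixed cultures, and MAGED1 and MAGED2 are highest in MCF10A.

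Whether the lines responded differently was tested as the interaction of line and irradiation over the 12 monoculture libraries. The response of MAGED1 in HCT116 minus that in MCF10A was -0.71 on the log2 scale (SE 0.083, edgeR adjusted p = 2.1e-07), and for MAGED2 it was -0.77 (SE 0.093, edgeR adjusted p = 3.3e-07). Both calls were kept under all 18 alternatives. These were the 2 members called among the 4 that could also be tested within MCF10A. Of all genes 37.3% passed (15.4% higher and 21.9% lower in HCT116). MAGEF1 differed by 0.26 (SE 0.108, adjusted p = 0.062), which missed the threshold but passed in 9 of 18 alternatives, DESeq2 among them (0.29, adjusted p = 0.028). It passed without MCF10A NIR replicate 1, without any of the 3 MCF10A IR replicates, without HCT116 NIR replicate 2 and without HCT116 IR replicate 2, at 0.31 to 0.38 (adjusted p = 0.013 to 0.038). MAGEE1 differed by -0.48 (SE 0.337, adjusted p = 0.291). The median over all genes was -0.10. For MAGEA2, MAGEA3, MAGEB2 and MAGEB17 no difference of responses can be given, since MCF10A had at most 2 counts of each.

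The mixed cultures were then set against HCT116 alone. Without irradiation 0 of 8 members passed between mixed and HCT116 libraries with edgeR, 0 at an unadjusted p under 0.05 and 0 with DESeq2, while 2.04% of all genes passed. After irradiation it was 0 of 8 with edgeR and with DESeq2, and 1 at an unadjusted p under 0.05, with 8.56% of all genes passing. That member was MAGEA3, lower in the mixture by a log2 difference of -0.13 (SE 0.057, adjusted p = 0.167). The highest estimate was that of MAGEB17 after irradiation, 0.45 (SE 0.281, adjusted p = 0.384), whose mixed libraries (1.98 to 2.30 CPM) lay above those of HCT116 (1.44 to 1.74 CPM). MAGEB2 stood at -0.04 (SE 0.058) without and -0.02 (SE 0.051) with irradiation. The difference in irradiation response between mixed and HCT116 cultures passed for 0 of 9 members with edgeR, 0 at an unadjusted p under 0.05 and 0 with DESeq2, and for 0.83% of all genes. For MAGEA3 it was -0.11 (SE 0.093, adjusted p = 0.674). These comparisons share libraries with the irradiation comparisons above.

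A list of 3 other genes with a MAGE domain gave 1 expressed gene. NSMCE3, the subunit of the SMC5/6 complex that partners NSMCE1, was at 9.74 ± 1.03 CPM in MCF10A NIR and 12.8 ± 1.21 CPM in MCF10A IR (SD, n = 3 each). It rose there by 0.37 (SE 0.121, edgeR adjusted p = 0.0099). In HCT116 it stood at -0.10 (adjusted p = 0.493), and the difference between the lines was -0.55 (SE 0.168, edgeR adjusted p = 0.011), the same sign as for MAGED1 and MAGED2. Without MCF10A IR replicate 3 neither passed (0.29, adjusted p = 0.083, and -0.36, adjusted p = 0.122), and the difference did not pass without HCT116 IR replicate 2 (-0.41, adjusted p = 0.0794) or without a filter on low counts (-0.45, adjusted p = 0.052). In the mixed cultures it fell by 0.27 (edgeR adjusted p = 0.049), a call lost in 8 of 12 alternatives, DESeq2 (adjusted p = 0.057) and 4 left-out libraries (adjusted p = 0.051 to 0.214) among them. NDN had no counts in any library, and TRO was at 0.857 ± 0.266 CPM in HCT116 NIR (SD, n = 3).

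Of 12 genes for known partners and targets of MAGE proteins, 3 rose and 3 fell in HCT116, and 2 rose and 4 fell among 11 tested in MCF10A. In the mixed cultures 1 rose and 3 fell of 12. Over all genes tested, 52.6%, 55.4% and 49.4% passed in HCT116, MCF10A and the mixture, so 6 of 12, 6 of 11 and 4 of 12 partners do not stand out by number. TRIM28, the ligase bound by MAGEA3 and MAGEA6, fell in HCT116 by 0.52 (SE 0.058, edgeR adjusted p = 1.2e-07), from 537 to 373 CPM, where MAGEA3 rose. It fell also in MCF10A by 0.66 and in the mixed cultures by 0.61 (edgeR adjusted p = 1.2e-11 and 5.3e-09). USP7, a deubiquitinase that works with MAGEL2 and TRIM27, fell in all 3 cultures, by 0.40, 0.50 and 0.53 in HCT116, MCF10A and the mixture (edgeR adjusted p = 6.3e-06, 5.8e-11 and 8.3e-08). PRKAA1 rose in HCT116 by 0.16 (edgeR adjusted p = 0.028), a call lost in 7 of 12 alternatives, 5 of them left-out libraries (adjusted p = 0.055 to 0.176). In MCF10A PRKAA1 fell by 0.16 (edgeR adjusted p = 0.0033). PRKAA1 did not pass in the mixed cultures (0.08, edgeR adjusted p = 0.325).

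G3BP1 differed in direction between the lines. It was at 506 ± 3.14 CPM in HCT116 NIR and 569 ± 37.7 CPM in HCT116 IR, and at 766 ± 3.50 CPM in MCF10A NIR and 558 ± 3.98 CPM in MCF10A IR (SD, n = 3 each). It rose by 0.18 in HCT116 (edgeR adjusted p = 0.011, but 0.053, 0.087 and 0.055 without NIR replicate 2, IR replicate 2 and IR replicate 3) and fell by 0.48 in MCF10A (edgeR adjusted p = 7.0e-12). The difference of responses was 0.58 (SE 0.066, edgeR adjusted p = 1.2e-07). The rise in HCT116 was not called in the mixed cultures, where G3BP1 stood at 0.08 (edgeR adjusted p = 0.219). G3BP1 was also higher in mixed NIR than in HCT116 NIR, by 0.24 (edgeR adjusted p = 0.039), a call lost in 7 of 12 alternatives.

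Among 7 genes of DNA methylation and demethylation, 2 rose and 3 fell in HCT116, 1 rose and 5 fell in MCF10A, and 1 rose and 3 fell in the mixed cultures. In the same order, 52.6%, 55.4% and 49.4% of all genes passed. DNMT1, the maintenance methyltransferase, fell from 342 to 173 CPM in HCT116 and from 229 to 128 CPM in MCF10A (edgeR adjusted p = 2.1e-12 and 1.9e-15). UHRF1, which brings DNMT1 to newly made DNA, fell from 155 to 76.7 CPM in HCT116 and from 153 to 62.3 CPM in MCF10A (edgeR adjusted p = 6.4e-12 and 1.3e-18). TET2 and TET3, which oxidise methylated cytosine, rose in HCT116 by 0.56 and 0.51 (edgeR adjusted p = 6.9e-06 and 6.3e-06). In MCF10A TET3 fell by 0.27 (edgeR adjusted p = 6.8e-04), TET2 stood at -0.15 (adjusted p = 0.099), and TET1 fell by 1.04 (edgeR adjusted p = 0.024), a call lost without NIR replicate 2 or IR replicate 1 (adjusted p = 0.115 and 0.131). In the mixed cultures TET3 rose by 0.23 (edgeR adjusted p = 0.012), lost without NIR replicate 2 or IR replicate 3 (adjusted p = 0.059 and 0.10), and TET2 stood at 0.16 (adjusted p = 0.134) and passed without NIR replicate 3 (0.26, adjusted p = 0.013). None of the other 23 type I genes reached 1 CPM in an IR group. In MCF10A the 26 type I genes summed to 0.0588, 0.0563 and 0.205 CPM without irradiation and 0.514, 0.620 and 0.235 CPM with it. These sums did not overlap, and each rests on few counts. A link between the levels of these enzymes and those of the members was not tested.

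Most other cancer-testis genes had few or no counts too. Of 80 such genes in the tables, 48 had no count, beside 10180 of all 40916 symbols. Among the 48 were genes with near-identical copies whose reads may have been dropped, so that a 0 is uncertain there. The sequence these genes share was not computed. In the list 2 genes reached 1 CPM, PRAME and CSAG3, both without any count in MCF10A. PRAME, a substrate receptor of a cullin ligase, was at 39.4 ± 1.68 CPM in HCT116 NIR and 33.8 ± 2.92 CPM in HCT116 IR and fell by 0.22 (edgeR adjusted p = 0.035). CSAG3 rose there by 0.28 (edgeR adjusted p = 0.030), but neither call held for every left-out library. PRAME was lost without NIR replicates 1 or 2 or IR replicates 2 or 3 (adjusted p = 0.059 to 0.175), and CSAG3 without NIR replicates 2 or 3 or IR replicates 1 or 2 (adjusted p = 0.053 to 0.134). Neither gene passed in the mixed cultures, with PRAME at -0.12 (edgeR adjusted p = 0.206) and CSAG3 at 0.25 (edgeR adjusted p = 0.106). In MCF10A, SPANXC and SPANXB1 rose with irradiation (edgeR adjusted p = 0.0025 and 0.014; that of SPANXB1 was 0.086, 0.071 and 0.072 without NIR replicates 1 and 2 and IR replicate 3, and 0.051 without a filter) but stayed under 1 CPM, SPANXC at 0.791 ± 0.185 CPM and SPANXB1 at 0.464 ± 0.113 CPM in MCF10A IR (SD, n = 3).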

How the data were processed

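Raw counts per gene symbol, 1 table per library, were used as deposited, not normalized. The submitters' processing notes name fastp, STAR, featureCounts and GRCh38, with no versions. The annotation, strand setting and treatment of multi-mapping reads are not given in the sources used here. The labels' protocols name a stranded poly(A) kit. Members and gene lists were chosen with earlier results of these data known, and the line difference was therefore not tested.

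All 35 members are accounted for, and expressed members are named with every library. From each side list the other MAGE-domain genes and at most 3 genes per direction are named, by the largest log2 fold change among those called with at least 1 CPM. Not every gene that met this rule is named. DNMT1, TET2, TET3 and PRKAA1 in MCF10A, TET2 in the mixture, SPANXB1, SPANXC and transcripts neighbouring members were named after their values were seen. So were the irradiation responses of G3BP1, PRKAA1, PRAME and CSAG3 in the mixture. CPM used full library totals (25.7 to 40.8 M counts). Fits used R 4.3.3 and edgeR 4.0.16 (TMM, filterByExpr, quasi-likelihood, 2-sided, Benjamini-Hochberg over all genes tested, threshold 0.05), on the compared groups only. Standard errors come from the fold change and F. DESeq2 1.42.0, other normalizations, no filter, halved counts, a replicate block and leaving out each library were alternatives. Intervals and floors cover counting error only. The intervals used counts that were not halved, so they may be too narrow. Replicates differed beyond counting error (chi-squared per gene 4.59 to 12.9). The text calls them biological; p-values measure the spread between these libraries.

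The test was tested on simulated data in which every gene had the same spread and 200 well-counted genes were changed. For irradiation of HCT116 (16567 genes) it recovered 100% of 2-fold and 98% of 1.5-fold changes. For the response difference (17342 genes) it recovered 99% and 66%. False calls made up 4.81% and 2.37% of all calls. In the data 52.6% and 37.3% of genes passed, and members with few counts had wide errors. The simulated rates therefore do not describe each member. Line-specific genes for the mixed libraries had a mean of at least 20 CPM in their own line, and each library of the other line was under 1 CPM. Positions and upstream sequences are from RefSeq (GRCh38.p14), exon lengths and transcripts from GENCODE release 29. The lines' full genotype is not reported here.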

Additional observations from a re-analysis of the deposited data

Results flagged for a closer look

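The results below had a tested difference in irradiation response between the lines, HCT116 minus MCF10A on the log2 scale, with an edgeR adjusted p under 0.05. With 3 libraries a group, single libraries were not tested as outliers. The difference was -0.71 for MAGED1, -0.77 for MAGED2 and -0.55 for NSMCE3, which all rose in MCF10A and did not pass in HCT116. Among partners it was 0.58 for G3BP1, -0.41 for HDAC1, -0.41 for PJA1 and 0.25 for PRKAA1. Among DNA methylation genes it was -0.19 for DNMT1, -0.47 for DNMT3A, 0.23 for UHRF1, 0.87 for TET1, 0.63 for TET2 and 0.69 for TET3. Alternatives ended the call of NSMCE3 in 3 of 18 (adjusted p up to 0.122), PJA1 in 3 (up to 0.199), TET1 in 9 (up to 0.152), and DNMT1 in 10 (up to 0.535, with -0.07 without MCF10A IR replicate 2). That of DNMT3A was lost without MCF10A IR replicate 2 (-0.30, adjusted p = 0.056) and that of UHRF1 without HCT116 NIR replicate 2 (adjusted p = 0.078). The median over all genes was -0.10, and 37.3% of all genes passed.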

How the results depend on the processing

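The counts of members called were 1 in HCT116, 3 in MCF10A, 2 in the mixed cultures and 2 for the response difference of the lines. In the mixed cultures the count ranged from 1 to 2 when each library was left out, with 1 in 5 of 6 fits, where MAGED2 was lost. No log2 fold change printed with a passing test changed direction in the alternatives that gave a value. The fall of PRKAA1 in MCF10A was not among those checked. The share of MCF10A RNA in mixed libraries moved from 0.447% to 0.345% (NIR) and from 1.24% to 1.07% (IR) when specific genes needed 50 CPM. The log2 ratio of the lines without irradiation became -0.68 (MAGED1), -0.99 (MAGED2) and 0.53 (MAGEF1) with upper-quartile library sizes. Replicate numbers did not pair libraries: residual correlations of libraries with the same number lay between -0.217 and 0.238 over 15 pairs of groups, and in 2 pairs every library correlated best with its own number. With the replicate number as a block the counts of members called were 1, 3, 2 and 2, as without it, and 0 for the 3 comparisons of mixed with HCT116 cultures. In the block fits PRKAA1 in HCT116 (adjusted p = 0.051), TRIM27 in the mixed cultures (adjusted p = 0.062) and the response difference of TET1 (adjusted p = 0.070) were lost. Depth limits the members under 1 CPM: 3 counts stand for 0.0735 to 0.117 CPM in a library.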
